A study of Mus musculus with 36 samples.

Results

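Thyroid hormone handling in the suprachiasmatic nucleus (SCN) region was followed through 5 genes: Dio2, Thra, Thrb, Crym and Rax. They were taken by symbol, and each stood on 1 of the 24883 rows of both expression tables. RNA had been sequenced from an SCN-enriched piece of fresh brain of adult C57BL/6J mice, fed either normal chow or a high-fat diet for 10 weeks. Tissue was sampled at time points 0, 4, 8, 12, 16 and 20, which the file headers give as zeitgeber time (ZT), the hour of the light cycle. Each of the 12 groups of 1 diet and 1 time point held 3 libraries, 36 in all. The labels name no genetic change in these mice, and both diets share the strain, the dissection and the library protocol. They also describe the material as brain homogenate, and do not say whether replicates were separate or pooled animals, so p-values measure only the spread between these libraries. Each diet has a table of its own, so anything that differs between the making of the 2 tables cannot be told apart from diet.

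Thyroid hormone reaches the brain mainly as thyroxine (T4), which membrane transporters such as OATP1C1 (gene Slco1c1) carry into cells. The type 2 deiodinase encoded by Dio2, an enzyme of astrocytes and of tanycytes, converts T4 into the active hormone T3, and the type 3 deiodinase (Dio3) inactivates both. T3 acts through the nuclear receptors TRα (Thra) and TRβ (Thrb). Mu-crystallin (Crym) binds T3 in the cytosol in the presence of NADPH. Tanycytes are glia-like cells that line the floor and lower walls of the third ventricle, beside the arcuate nucleus and median eminence, and Rax is a homeobox transcription factor that marks them. In seasonal mammals thyrotropin from the pars tuberalis, a dimer of the products of Tshb and Cga, sets deiodinase expression in tanycytes.

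Values are FPKM (fragments per kilobase of transcript, scaled to the mapped fragments of the library) rescaled to the same sum in each library, so that levels of different genes are compared per length. The deposited FPKM of a library summed to between 302899 and 432336. All 11 SCN markers, among them Avp, Vip and Six6, had a mean of at least 1, and their sum ran from 347 to 4458 between libraries. Transcripts of other tissue moved between libraries too: 8 libraries had over 5 times the median level of liver transcripts, and 2 libraries, normal chow ZT 12 replicate 3 and high-fat diet ZT 16 replicate 3, had 8.80 and 12.3 times the median level of striatal transcripts. The last of these was also 1 of the 8, with 5.18 times the median level of liver transcripts. In bulk tissue, fewer cells of a type and less RNA per cell cannot be told apart.

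The 5 genes covered a wide range of levels. Thra averaged 484 rescaled FPKM over the 36 libraries, above 97.8% of the 15173 rows tested, and Crym averaged 39.2. Thrb averaged 12.4 and Dio2 6.31, while Rax averaged 0.374. Rax lay under the minimum mean of 1 used for testing, so 4 of the 5 genes entered the tests, and Rax was taken from the same fits made with no minimum. The spread within groups differed even more than the level. Its standard deviation (SD) in log2(value + 1) was 0.072 for Thra, smaller than in all but 1.11% of the tested rows. It was 0.25 for Thrb, 0.71 for Dio2 and 1.83 for Crym, beside a median of 0.19 over all tested rows, and 99.1% of those rows varied less than Crym.

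**Figure D1:**
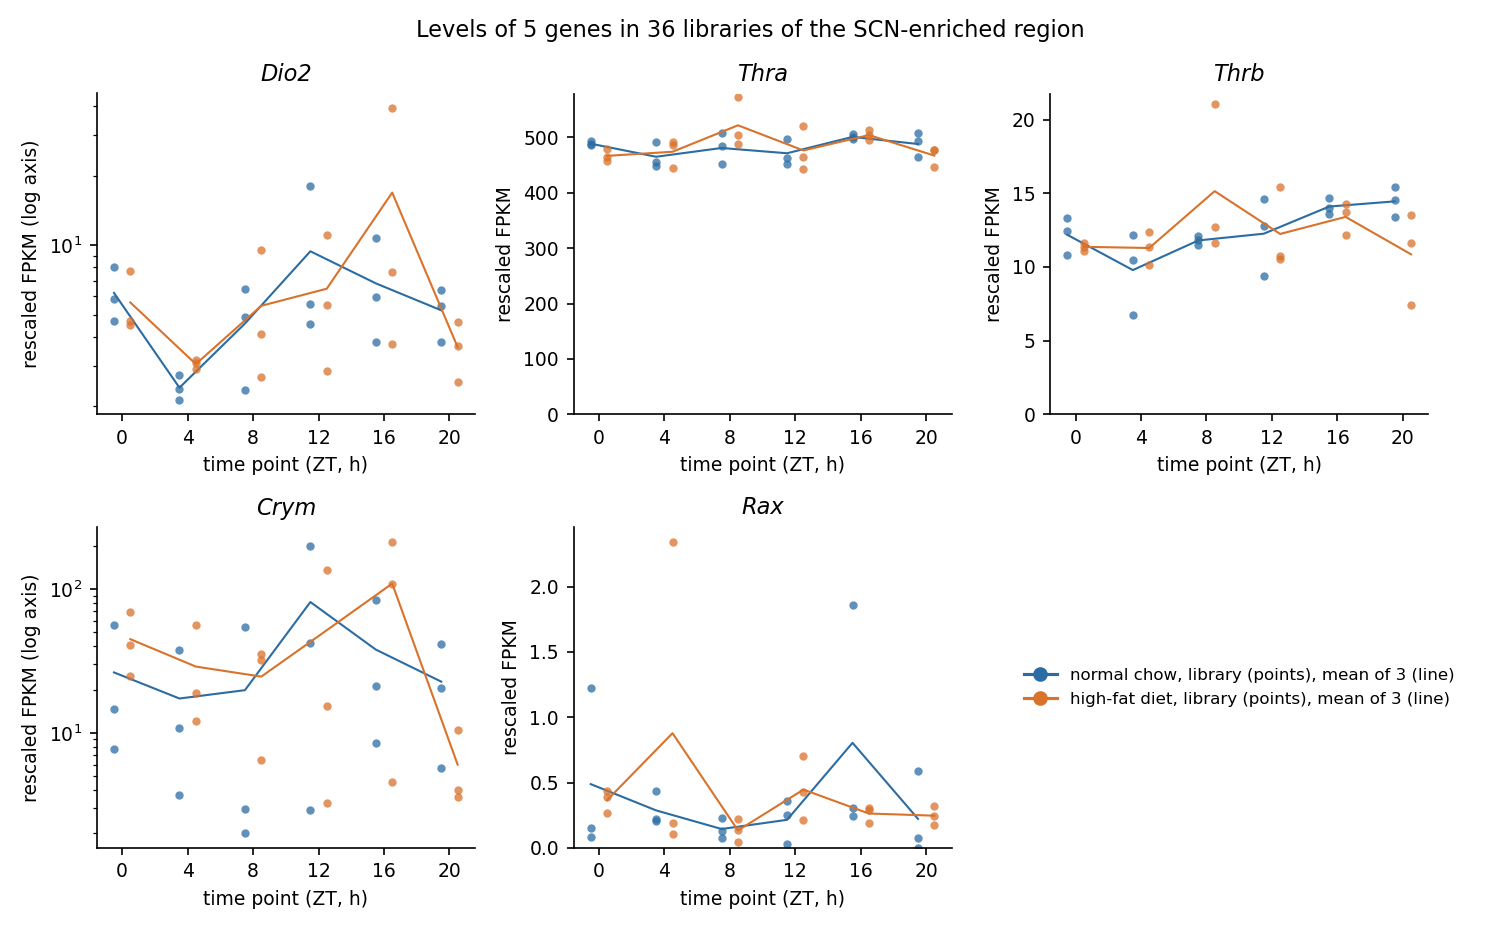
Rescaled FPKM (vertical axis; logarithmic for Dio2 and Crym) against time point in zeitgeber hours for each gene; points are libraries, lines join the means of 3 libraries, blue is normal chow and orange high-fat diet. Thra stays between 443 and 573 in the 36 libraries, whereas Crym runs from 2.01 to 214 and replicates of 1 group can lie at opposite ends of that range.

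Dio2 was at its lowest at ZT 4 in both diets. In normal chow its rescaled FPKM was 5.86, 8.07 and 4.68 at ZT 0, 2.72, 2.14 and 2.37 at ZT 4, and 2.35, 4.88 and 6.48 at ZT 8. It was 5.53, 4.55 and 18.1 at ZT 12, 10.7, 3.81 and 5.96 at ZT 16, and 6.41, 3.81 and 5.42 at ZT 20. The 3 libraries of ZT 4 lay close together, while those of ZT 12 and ZT 16 were spread over several-fold, with replicate 3 of ZT 12 far above the other two. In high-fat diet the values were 4.51, 4.71 and 7.70 at ZT 0, 2.91, 3.07 and 3.16 at ZT 4, and 4.12, 9.56 and 2.69 at ZT 8. They were 2.86, 5.50 and 11.1 at ZT 12, 3.73, 7.67 and 39.3 at ZT 16, and 4.64, 3.64 and 2.56 at ZT 20. Again the ZT 4 libraries were close to each other, and 1 library, replicate 3 of ZT 16, stood far above all the rest. Over both diets, 4 of the 30 libraries of the other hours were at or below 3.16, the highest value of ZT 4. That hour was picked after its values were seen, so this is a description. The 2 highest Dio2 values came from the 2 libraries rich in striatal transcripts. Ordered by mean, the 12 groups ran from 16.9 in high-fat diet at ZT 16 to 2.41 in normal chow at ZT 4. Only 1 of the 11 pairs of neighbours in that order did not overlap, namely ZT 4 of high-fat diet and ZT 4 of normal chow. Dio2 had no called diet difference at any hour. Such pairs were not counted over all tested rows, so this count and those given below for other genes are descriptions.

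No 24 h rhythm of Dio2 passed the test. With both diets in 1 limma fit, its fitted peak-to-trough difference was 0.93 ± 0.32 (SE) on the log2(value + 1) scale, a fold of 1.91, with the peak at ZT 15.4 ± 1.31 h. The unadjusted p was 0.0224 and the adjusted p 0.272 (limma moderated F test, Benjamini-Hochberg over all rows tested), which missed the threshold of 0.05. Normal chow alone gave 0.92 ± 0.37 with a peak at ZT 15.7 and an adjusted limma p of 0.311, and 0.29 with an adjusted limma p of 0.880 once 5 tissue scores were covariates. High-fat diet alone gave 0.95 ± 0.51 with a peak at ZT 15.0 and an adjusted limma p of 0.641. Without the 2 libraries rich in striatal transcripts the value over both diets was 0.54 (adjusted limma p 0.547), and without high-fat diet ZT 16 replicate 3 alone the value in high-fat diet was 0.40. For scale, the clock output gene Dbp had a peak-to-trough difference of 1.20 ± 0.085 over both diets, with an adjusted limma p of 3.08e-11.

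Dio2 spans chr12:90724552-90738438 on the minus strand of GRCm38 in the GENCODE annotation, with 1 transcript. The RefSeq start lies upstream of that model, and the 250 bases before it on GRCm38.p6, chr12:90739039-90739288 (minus strand), are shown because the Dio2 promoter is the one through which cAMP signals are known to act on this gene.
Dio2 promoter: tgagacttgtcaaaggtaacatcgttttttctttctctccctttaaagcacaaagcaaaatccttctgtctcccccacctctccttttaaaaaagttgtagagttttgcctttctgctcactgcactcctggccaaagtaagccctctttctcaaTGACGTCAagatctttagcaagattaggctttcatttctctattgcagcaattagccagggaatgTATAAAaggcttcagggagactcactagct
The capitals mark a full cAMP response element (CRE), TGACGTCA, that begins 95 bases before the start, and a TATA box, TATAAA, that begins 30 bases before it. Both strands were searched. The CRE was found in 1.55% of 32851 RefSeq promoter windows and the TATA box in 12.4%. The windows searched were the 250 bases before each start. The D-box TTATGTAA, found in 0.819% of windows, was not matched here. A match is a description of letters, and no binding was measured.

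The receptor genes differed in level and in spread. Thra in normal chow lay between 449 and 507 rescaled FPKM, with a median of 489 over 18 libraries. In high-fat diet it lay between 443 and 573, with a median of 482. The highest value, 573, came from high-fat diet ZT 8 replicate 2, the library with the lowest FPKM sum. Before rescaling, Thra in that library was 173, inside the range of 164 to 198 that the deposited FPKM of Thra covered over all 36 libraries. Thra had no called rhythm: its peak-to-trough difference over both diets was 0.050 ± 0.041 log2, with an adjusted limma p of 0.757. The group means ran from 522 in high-fat diet at ZT 8 to 465 in normal chow at ZT 4, and 1 of 11 neighbouring pairs did not overlap.

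Thra lies at chr11:98740638-98769006 on the plus strand and has 9 annotated transcripts, so the row does not tell T3-binding TRα1 from the non-binding TRα2 form. Its 3′ end overlaps that of Nr1d1, the clock repressor REV-ERBα, which lies at chr11:98767932-98775333 on the minus strand. The genes share 1075 bases, of which 263 are exonic in both, or 5.70% of the exonic bases of Thra and 8.55% of those of Nr1d1. Whether the counting used strand is not given in the sources used here, so reads in that stretch may have been assigned to either gene. Nr1d1 had a called rhythm over both diets, of 0.56 ± 0.051 log2 with a peak at ZT 6.64 and an adjusted limma p of 1.94e-08. Thra, at several times the level of Nr1d1, did not.

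Thrb in normal chow was 12.4, 10.8 and 13.3 at ZT 0, 12.2, 6.76 and 10.5 at ZT 4, and 12.1, 11.5 and 11.8 at ZT 8. It was 9.42, 12.8 and 14.6 at ZT 12, 14.7, 14.0 and 13.6 at ZT 16, and 13.4, 14.6 and 15.4 at ZT 20. On rescaled values the 6 libraries of ZT 16 and ZT 20 thus all lay above the 6 of ZT 4 and ZT 8. Before rescaling this separation was not complete, with ZT 20 replicate 1 at 4.74 and ZT 8 replicate 1 at 4.79. Those hours were picked after their values were seen, and rows that separate in this way were not counted, so this is a description. A normal chow rhythm of 0.46 ± 0.14 log2 was fitted, a fold of 1.38 with a peak at ZT 17.3 ± 1.12 h. Its unadjusted p was 0.0113 and its adjusted limma p 0.170, so it was not called. On the FPKM as deposited the fitted normal chow value was 0.33 log2. In high-fat diet Thrb was 11.1, 11.4 and 11.6 at ZT 0, 12.4, 11.3 and 10.2 at ZT 4, and 11.7, 21.1 and 12.7 at ZT 8. It was 10.6, 10.8 and 15.4 at ZT 12, 12.2, 13.8 and 14.3 at ZT 16, and 11.7, 13.5 and 7.41 at ZT 20. The order of hours seen in normal chow was absent there: the highest library was at ZT 8 and the lowest at ZT 20. These are the libraries with the lowest and the highest FPKM sum, so rescaling moved them apart. Before rescaling Thrb was 6.38 and 3.20 in them, still the highest and the lowest value of high-fat diet. The fitted high-fat rhythm was 0.30 ± 0.17 log2 with a peak at ZT 10.4 and an adjusted limma p of 0.660. The difference in rhythm between diets was itself tested and gave 0.61 ± 0.23 log2, with an unadjusted p of 0.0374 and an adjusted limma p of 0.364. No 2 neighbours of the 12 group means, which ran from 15.1 in high-fat diet at ZT 8 to 9.79 in normal chow at ZT 4, were free of overlap.

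Thrb covers chr14:17660261-18038090 on the plus strand, with 7 annotated transcripts. RefSeq gives windows at 2 starts of Thrb. The window before the upstream start, chr14:17660710-17660959, held none of the 5 motifs searched, which were the CRE, the E-box CACGTG, the D-box, the TATA box and the direct-repeat thyroid response element, 2 copies of AGGTCA with 4 bases between them. The 250 bases before the downstream start, chr14:17981394-17981643 (plus strand, GRCm38.p6), are shown because they hold the E-box, the sequence that the CLOCK and BMAL1 proteins bind.
Thrb downstream promoter: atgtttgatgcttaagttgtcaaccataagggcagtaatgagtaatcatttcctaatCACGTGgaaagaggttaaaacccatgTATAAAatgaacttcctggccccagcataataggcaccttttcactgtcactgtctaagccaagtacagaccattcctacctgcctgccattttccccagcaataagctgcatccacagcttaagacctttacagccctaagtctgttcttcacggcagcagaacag
Capitals mark the E-box, which begins 193 bases before the start, and a TATAAA match that begins 167 bases before it. The E-box was found in 6.02% of the RefSeq windows and the thyroid response element in 0.0152%. The gene's row does not separate transcripts from the 2 starts.

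Crym varied more than any other of the 5 genes. In normal chow it was 7.70, 56.6 and 14.7 at ZT 0, 3.71, 37.5 and 10.8 at ZT 4, and 2.01, 2.94 and 54.5 at ZT 8. It was 42.2, 2.92 and 198 at ZT 12, 84.2, 8.44 and 21.1 at ZT 16, and 41.8, 5.69 and 20.6 at ZT 20. At each of the 6 hours the highest replicate exceeded the lowest by 7.34-fold or more. In high-fat diet it was 40.9, 68.8 and 24.7 at ZT 0, 18.8, 55.8 and 12.1 at ZT 4, and 35.4, 31.9 and 6.51 at ZT 8. It was 3.27, 15.4 and 136 at ZT 12, 4.58, 109 and 214 at ZT 16, and 10.5, 3.99 and 3.58 at ZT 20. ZT 20 was the single high-fat hour without a library above 10.5, and none of the 11 neighbouring pairs of group means was free of overlap. Group means ran from 109 ± 105 (SD, n = 3) in high-fat diet at ZT 16 to 6.02 ± 3.86 (SD, n = 3) at ZT 20 of the same diet. No rhythm of Crym was called. Its peak-to-trough difference over both diets was 0.55 ± 0.81 log2, with an adjusted limma p of 0.908. It was 0.20 without high-fat diet ZT 16 replicate 3 and 0.27 without both libraries rich in striatal transcripts. Crym lies at chr7:120186380-120202111 on the minus strand, with 2 annotated transcripts.

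The level of Crym followed that of striatal transcripts from library to library. Its log2 value and the mean log2 score of 8 striatal markers, among them Drd1, Adora2a and Ppp1r1b, had a Pearson r of 0.88 and a Spearman rho of 0.96 over 36 libraries. The permutation p values, adjusted over 50 relations, were 0.000125 and 0.00025, and the raw p of 1e-05 is the smallest that 100000 permutations can give. Within normal chow r was 0.89 and within high-fat diet 0.88, over 18 libraries each. Without the 2 libraries farthest out on the striatal score, which are the 2 rich in striatal transcripts, r was 0.91, so the relation did not rest on them. Crym is itself expressed by neurons of the striatum, and how much of its level came from there was not tested. Of the defining striatal markers none was at 0 in any library: Drd1 ran from 3.05 to 87.5 rescaled FPKM and Adora2a from 0.994 to 109. The summed level of the 8 markers ran from 93.1 to 1283 in normal chow and from 101 to 1792 in high-fat diet.

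**Figure D2:**
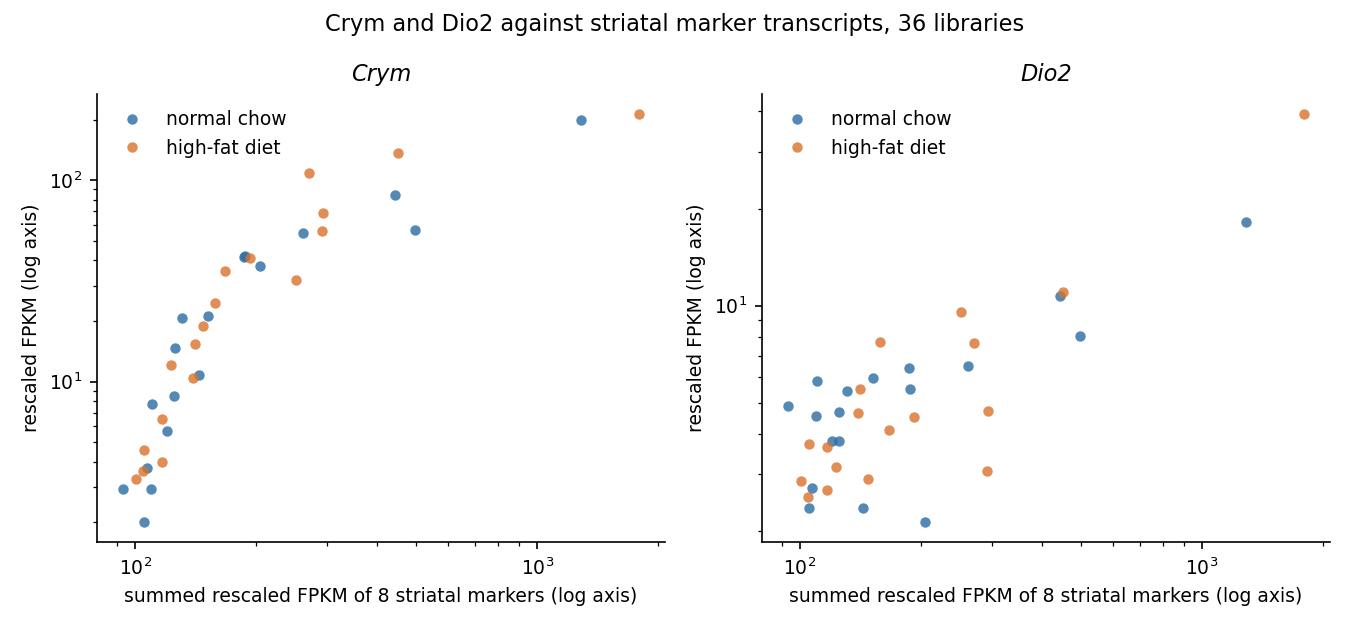
Rescaled FPKM of Crym (left) and Dio2 (right) against the summed rescaled FPKM of 8 striatal markers, both axes logarithmic; each point is 1 of 36 libraries, coloured by diet. Crym climbs with the striatal sum along its whole range, from 93.1 to 1792, whereas Dio2 is scattered between 2.14 and 11.1 in 34 libraries and reaches 18.1 and 39.3 in the 2 with the highest sums.

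Dio2 had the same relation in weaker form. Its r with the striatal score was 0.84 and its rho 0.63, with adjusted permutation p values of 0.000125 and 0.0011 over 36 libraries. Without the 2 libraries rich in striatal transcripts r was 0.65. Dio2 and Crym also varied together, with an r of 0.71 and a rho of 0.66 (adjusted permutation p 0.000125 and 0.000333), and an r of 0.62 without the same 2 libraries. Both ran opposite to the markers of multiciliated ependymal cells, the cells that line the upper ventricle wall, such as Foxj1 and Ccdc153. That r was -0.63 for Crym (rho -0.57) and -0.62 for Dio2 (rho -0.49), with adjusted permutation p values of 0.0003 and 0.000417 for r and 0.0025 and 0.00943 for rho. Without the 2 libraries farthest out on the ependymal score the values were -0.53 and -0.44. The summed ependymal level ran from 211 to 555 in normal chow and from 159 to 513 in high-fat diet, and it was lowest in high-fat diet ZT 16 replicate 3, the library with the most striatal transcripts. Whether the amount of either tissue set these levels was not tested. The relations of Crym and Dio2 with the striatal score, with the ependymal score and with each other kept their sign and stayed under the threshold in all 7 alternatives of scaling, pseudocount, group means, replicate number and libraries left out. With the score of 11 tanycyte markers r was 0.55 for Dio2 (rho 0.55, adjusted permutation p 0.00506 and 0.00536) and 0.49 for Crym (rho 0.52, adjusted permutation p 0.0111 and 0.00725). Without the 2 libraries farthest out on that score the values were 0.69 and 0.63. Dio2 had an r of 0.48 with the astrocyte score (rho 0.63, adjusted permutation p 0.0159 and 0.0005). On the FPKM as deposited these 3 relations missed the threshold, at an r of 0.428, 0.435 and 0.235 (adjusted permutation p 0.0847, 0.0534 and 0.415). With the group means removed, Crym with the tanycyte score missed it too (r 0.349, adjusted permutation p 0.0871). So did Dio2 with the astrocyte score (r 0.312, adjusted permutation p 0.113).

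Relations that involve the receptors depended on the scaling. On rescaled values Thra and Thrb had an r of 0.76 (rho 0.73, adjusted permutation p 0.000125 and 0.00025 over 36 libraries), and Dio2 had an r of 0.47 with Thra (rho 0.52, adjusted permutation p 0.0202 and 0.00725). On the FPKM as deposited the same r values were -0.13 (adjusted permutation p 0.646) and -0.14 (adjusted permutation p 0.618). Thrb with the pan-neuronal score likewise went from 0.51 (rho 0.40) to -0.17. Of the 10 pairs of genes 5 passed the threshold on rescaled values and 1 on deposited values, and of the 40 relations with marker scores 16 and 5 did.

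**Figure D3:**
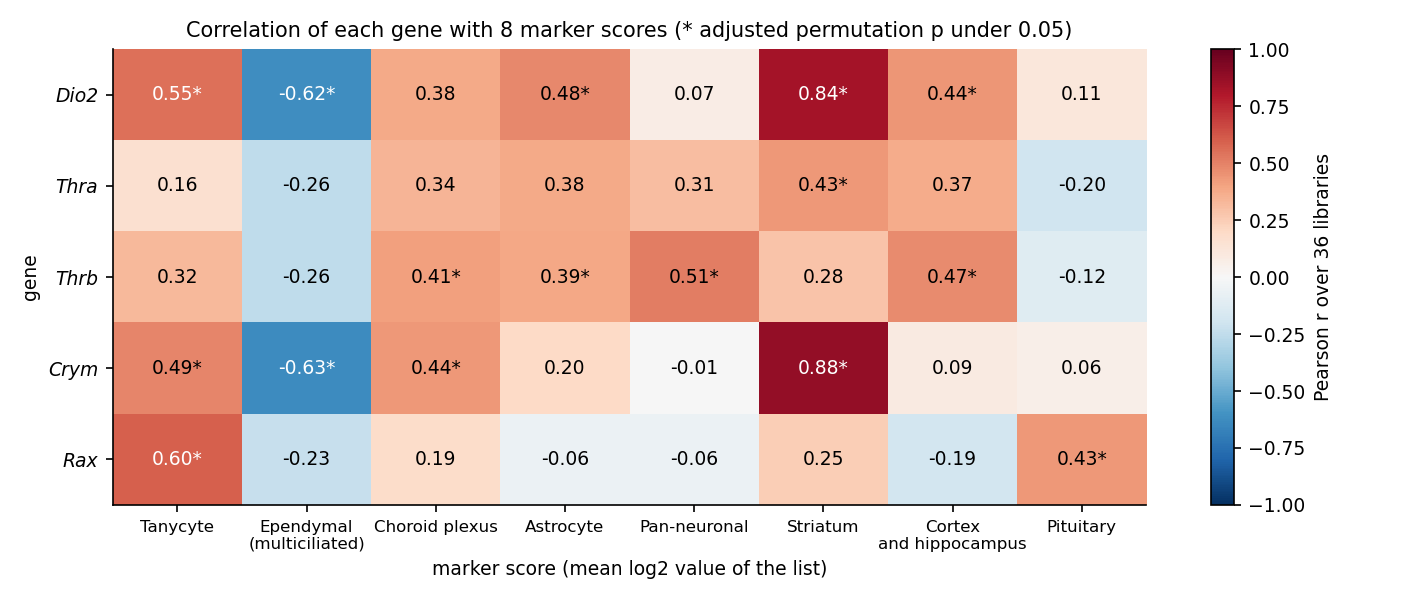
Pearson r over 36 libraries of the log2 level of each gene (rows) with the score of 8 marker lists (columns); red is positive, blue negative, and an asterisk marks an adjusted permutation p under 0.05 over 50 relations. The strongest values are those of Crym (0.88) and Dio2 (0.84) with the striatal score, the ependymal score is negative for both, and the tanycyte score has its highest value, 0.60, with Rax.

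Rax was barely detected. In normal chow it was 0.154, 1.22 and 0.0854 at ZT 0, 0.221, 0.206 and 0.432 at ZT 4, and 0.0777, 0.13 and 0.225 at ZT 8. It was 0.362, 0.0316 and 0.25 at ZT 12, 1.86, 0.243 and 0.308 at ZT 16, and 0, 0.587 and 0.0788 at ZT 20. Replicate 2 of ZT 0 and replicate 1 of ZT 16 stood apart from the rest. In high-fat diet the lowest of 18 libraries was 0.0458, the median 0.255 and the highest 2.34, in ZT 4 replicate 3. All other high-fat libraries were at or below 0.701. The number of reads behind an FPKM is unknown here, so the value of 0 says only that Rax was listed at 0 in that library. No rhythm was called in the fit with no minimum, where the peak-to-trough difference over both diets was 0.10 ± 0.18 log2 and the adjusted limma p 0.945.

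The 3 libraries with the most Rax were also the 3 with the most Agrp, the neuropeptide of arcuate neurons. Agrp was 19.1 in normal chow ZT 16 replicate 1, 19.0 in normal chow ZT 0 replicate 2 and 17.6 in high-fat diet ZT 4 replicate 3, beside a median of 1.50 over all libraries. Cga, which encodes the common subunit of the pituitary glycoprotein hormones, reached 46.8 and 28.5 in the first and the last of these, but was listed at 0 in the other. Tshb was 4.02 and 3.82 in the same 2 libraries, its highest values. Over all 36 libraries Rax had an r of 0.60 with the score of 11 tanycyte markers (rho 0.48, adjusted permutation p 0.00293 and 0.0108). Without the 2 libraries farthest out on the tanycyte score r was 0.56, and the call held with any 1 of the 36 libraries left out. Over the 32 libraries left after removing 4 with more than 5 times the median Agrp, r was 0.32 and the adjusted permutation p 0.151. That removal was chosen after the data were seen and takes out the 3 libraries highest in Rax, so it also narrows the range of Rax. The tanycyte list had 13 of its 15 genes at a mean of at least 1. The other 2 were Rax itself and Fndc3c1, which was listed at 0 in 3 libraries. The summed level of the 11 markers that are no thyroid hormone genes ran from 71.8 to 136 in normal chow and from 81.6 to 244 in high-fat diet. The value of 244 was that of 1 library, ZT 0 replicate 3, where Rax was 0.393, and the next highest was 137. Vim had the largest mean of the 11 markers, 58.0. What part tissue of the arcuate region had in the Rax values was not tested.

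**Figure D4:**
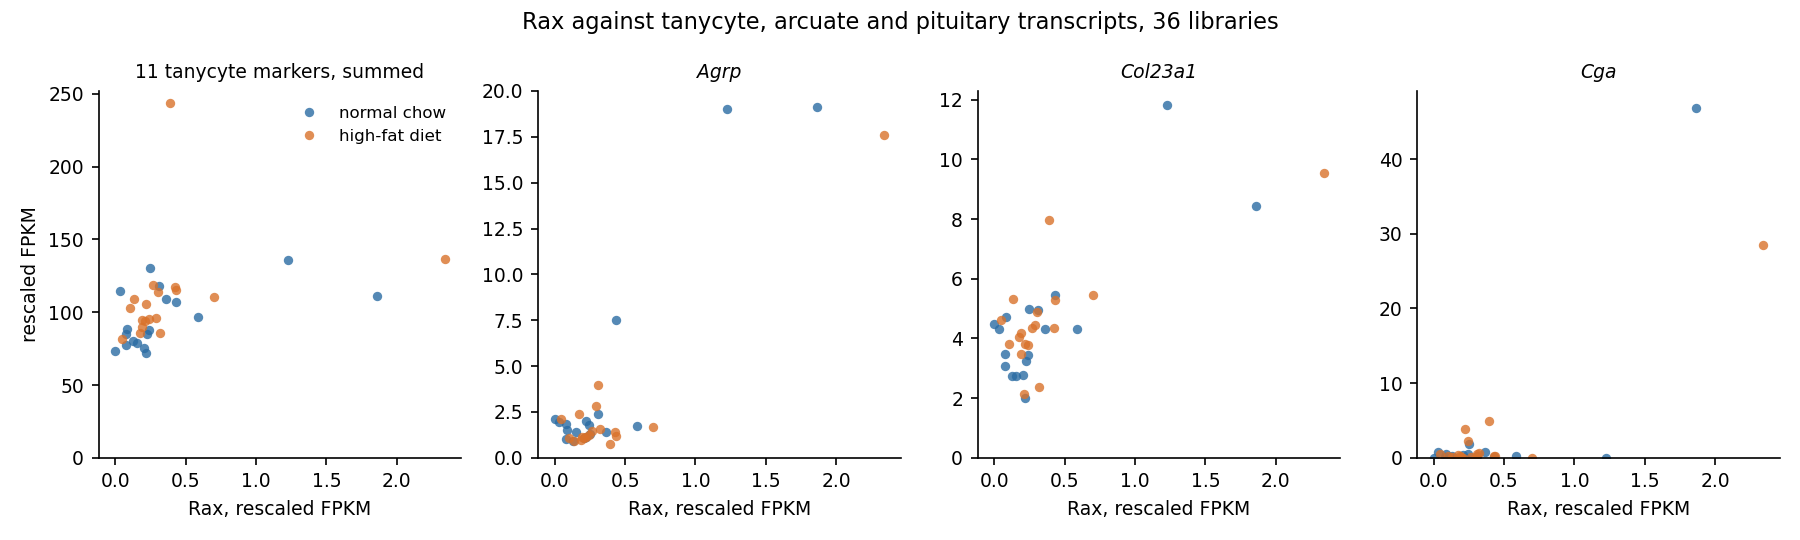
Rescaled FPKM of 11 summed tanycyte markers, Agrp, Col23a1 and Cga (panels, each with its own vertical scale) against the rescaled FPKM of Rax in 36 libraries, coloured by diet. The 3 libraries with Rax at 1.22, 1.86 and 2.34 are the 3 with the highest Agrp and Col23a1, and 2 of them have the highest Cga. Most of the remaining libraries lie together near the origin of the Agrp panel, with normal chow ZT 4 replicate 3 above them (Agrp 7.52, Rax 0.432).

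The genes most like each member were taken as the 5 with the largest r over 36 libraries after the 12 group means had been removed, as a description with no test. For Crym they were Adora2a (0.95), Kcnh3 (0.94), Ankrd63 (0.94), Gng7 (0.92) and Ppp1r1b (0.92), of which Adora2a and Ppp1r1b are on the striatal list. For Dio2 they were Fbxl16 (0.95), Akt2 (0.95), Sec14l1 (0.95), Tiam2 (0.94) and Ddn (0.94). Ddn, the gene of the postsynaptic protein dendrin, ran from 24.3 to 580 rescaled FPKM. For Thrb they were Zbtb38 (0.95), Fam171b (0.94), Lrrc8b (0.94), Dpp8 (0.94) and Mef2d (0.93), and 7.50% of the 13912 candidates had an r above 0.8 with it. All 5 were highest in high-fat diet ZT 8 replicate 2, the library with the lowest FPKM sum. They were lowest in high-fat diet ZT 20 replicate 3 and normal chow ZT 4 replicate 2, the libraries with the highest sums. Neighbours were not taken on the FPKM as deposited. Thra had less close neighbours, led by Etv5 (0.80), Rgl1 (0.78), Csgalnact1 (0.78), Hpcal4 (0.77) and Rnf10 (0.76). All of these but Hpcal4 were also highest in high-fat diet ZT 8 replicate 2. For Rax they were Agrp (0.84), Tbx3 (0.77), Col23a1 (0.75), Cga (0.73) and Hexa (0.72). Agrp and Tbx3 are on the arcuate list and Col23a1 is on the tanycyte list. Before group means were removed, r with Agrp was 0.81 over 36 libraries and 0.031 over the 32 without high Agrp.

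Counts over the whole tables give the background for these tests. In normal chow 128 of 15150 rows (0.845%) had a called rhythm and 18.2% an unadjusted p under 0.05. In high-fat diet 11 rows (0.0728%) were called and 8.64% had an unadjusted p under 0.05. Over both diets 331 rows (2.18%) were called, and the unadjusted p was under 0.05 in 13.1%. Of the 4 members tested, 0 were called in limma in any of these fits. At an unadjusted p under 0.05, Thrb stood alone in normal chow, none did in high-fat diet, and Dio2 stood alone over both diets.

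The wider pathway held 39 genes in 5 lists, 34 of which were tested with the 4 members among them. In normal chow 0 of the 34 passed in limma and 9 had an unadjusted p under 0.05 (26.5%), 5 of them among the 11 receptor and cofactor genes. In high-fat diet 0 passed, with 4 (11.8%) at an unadjusted p under 0.05, 0 of them receptor or cofactor genes. Over both diets 2 of the 34 passed, and 7 had an unadjusted p under 0.05 (20.6%), 1 of them a receptor or cofactor gene. Klf9, a transcription factor gene induced by T3 and by glucocorticoids, rose and fell by 0.73 ± 0.14 log2 (fold 1.65) with a peak at ZT 12.9 and an adjusted limma p of 0.00461. Its rescaled FPKM was 34.0, 35.3 and 37.6 at ZT 0 and 41.9, 55.7 and 82.3 at ZT 12 in normal chow. Leaving out the 8 liver-rich libraries gave Klf9 a difference of 0.74 log2, as large as before, with an adjusted limma p of 0.0655. Slc7a5, which encodes the LAT1 subunit that carries amino acids and T3, had a rhythm of 0.40 ± 0.067 log2 (fold 1.32) with a peak at ZT 10.7 and an adjusted limma p of 0.0014. Slc7a5 was 35.4, 38.4 and 35.7 at ZT 0 and 53.0, 49.7 and 47.2 at ZT 12 in normal chow. For Klf9 and Slc7a5 these hours lie near the trough and the peak of the same fits, so the values are a description. The high-fat values at these hours are not printed here. The corepressor gene Hr, a T3 target in brain, just missed the threshold with 0.43 ± 0.11 log2 and an adjusted limma p of 0.0563. Hr passed with median-of-ratios scaling (adjusted limma p 0.0480), in the test for any difference among time points (adjusted limma p 0.0299) and in 6 of 36 fits with 1 library left out.

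Other genes of the pathway were measured and not called in any test. The transporter gene Slco1c1 averaged 23.1 ± 3.43 rescaled FPKM in normal chow (SD, n = 18) and 25.3 ± 5.28 in high-fat diet (SD, n = 18). Dio3 averaged 0.830 in normal chow and 0.992 in high-fat diet, under the minimum for testing. Ttr, the T4 carrier transthyretin made by choroid plexus and liver, had a median of 14.9 in normal chow but reached 363 in ZT 0 replicate 1, the library with the highest albumin (Alb) level, 1890. The prohormone gene Trh averaged 306 in normal chow and 324 in high-fat diet. The retinoid receptor gene Rxrg averaged 25.7 and 25.9 in the same order, and Tshb 1.13 and 1.10.

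Diet left no called difference in any of the 5 genes. Over all time points the difference, high-fat diet minus normal chow, was 0.022 log2 for Dio2, with a 95% interval from -0.42 to 0.46 and an adjusted limma p of 1. For Thra it was 0.0060 log2 (-0.049 to 0.061), for Thrb -0.011 (-0.18 to 0.16) and for Crym 0.35 (-0.79 to 1.50), each with an adjusted limma p of 1. As folds, these intervals reach from 0.748 to 1.38 for Dio2, from 0.966 to 1.04 for Thra and from 0.881 to 1.12 for Thrb. For Crym the interval covers 0.579 to 2.82, so the data set much narrower limits on the receptor genes than on Crym. The mean of Rax was 0.360 ± 0.468 in normal chow and 0.389 ± 0.510 in high-fat diet (SD, n = 18). Of 15173 rows 2 (0.0132%) were called and 2.56% had an unadjusted p under 0.05, and 0 of the 34 pathway genes had one. The sign of each of the 5 differences turned under at least 1 alternative of scaling, covariates or libraries.

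At single time points the differences were no clearer. Among 91038 row and time point combinations 0 (0%) were called in limma, and 6.2% had an unadjusted p under 0.05. For the 4 tested genes 1 of 24 contrasts had one: Thrb at ZT 20, where high-fat diet was lower by -0.42 ± 0.20 log2 (95% interval -0.82 to -0.011), with an unadjusted p of 0.0446 and an adjusted limma p of 0.798. The Thrb libraries were 13.4, 14.6 and 15.4 in normal chow and 11.7, 13.5 and 7.41 in high-fat diet, so the groups overlapped by 1 library. Without high-fat diet ZT 20 replicate 3 the Thrb difference was -0.19, and with 5 tissue scores as covariates -0.086. The largest Dio2 contrast was at ZT 16, of 0.69 ± 0.55 log2 with an adjusted limma p of 0.911. Without high-fat diet ZT 16 replicate 3, which is rich in striatal transcripts, it was -0.19. The lowest Crym contrast was -1.52 ± 1.41 log2 at ZT 20, with an interval from -4.42 to 1.38. The difference in rhythm between diets was called in 0 of 15173 rows (0%) in limma, while 13.2% had an unadjusted p under 0.05, Thrb among them.

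**Figure D5:**
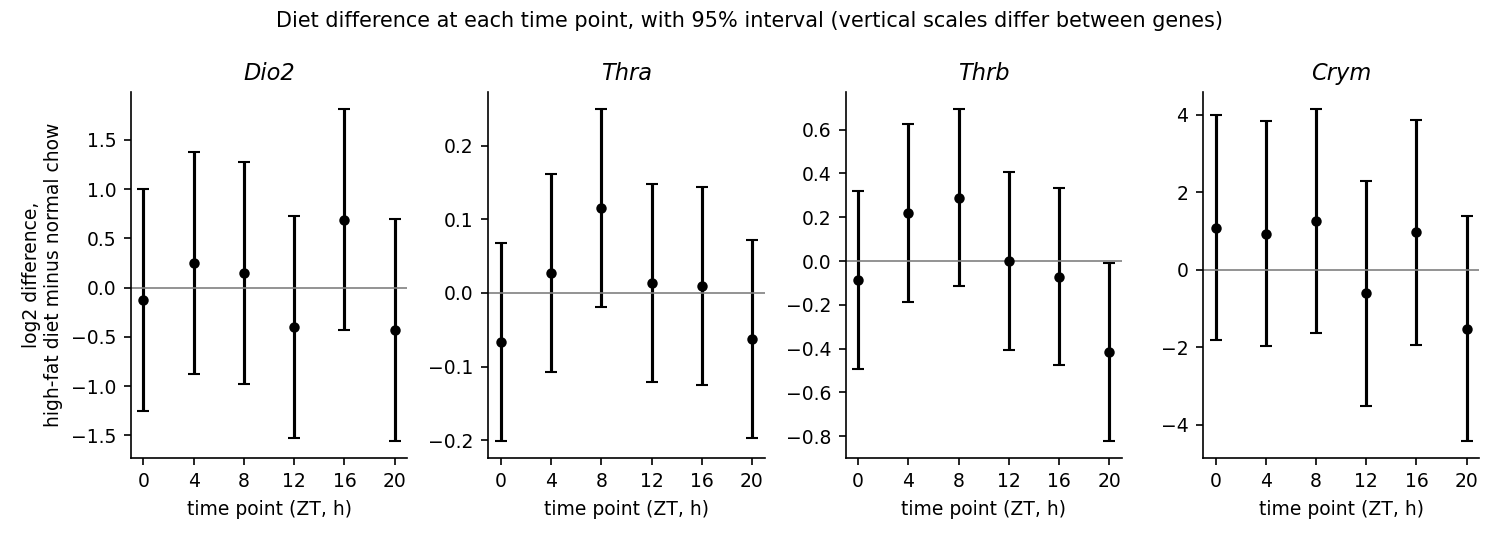
Difference between diets (high-fat diet minus normal chow, log2(value + 1) scale) at each zeitgeber time point for the 4 tested genes, each with its own vertical scale; bars are 95% intervals from the limma fit. The intervals include 0 in 23 of 24 cases, the exception being Thrb at ZT 20, and they lie within -0.20 to 0.25 for Thra but reach from -4.42 to 4.16 for Crym.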

How the data were processed

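Per the labels' protocols, tissue was frozen fresh, RNA came from a column kit (RNeasy Micro) and the libraries were TruSeq stranded mRNA libraries. The authors made the deposited FPKM values with Trimmomatic, TopHat and Cufflinks on builds mm10 and GRCm38, per the submitters' processing notes. Versions, options, annotation and the strand setting of the counting are not given in the sources used here. The unit FPKM is read from the deposited values and from Cufflinks, since no header states it. Depth in reads is therefore unknown, and no counting interval was computed.

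Each library was rescaled to a sum of 1000000 and transformed as log2(value + 1), a scale that understates changes of low genes. Rows with a mean of at least 1 were tested with limma 3.58.1 (R 4.3.3), with a mean-variance trend and Benjamini-Hochberg adjustment over all rows, called at an adjusted p under 0.05. Rhythms were cosine and sine terms of period 24 h, in each diet (18 libraries), in both with diet as a covariate, and as a diet interaction. Diet was fitted as 1 difference beside a term for each time point, and separately at each time point from the 12 group means, adjusted over the 6 contrasts together. All fits were tested on simulated data. Correlations used 2-sided permutation tests with 100000 permutations, adjusted over 50 relations, and marker scores left out the 5 genes and the thyroid hormone lists. The 5 genes and all lists were chosen with earlier results of these data known.

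Genes named are the 5, Dio3, Slco1c1, Ttr, Rxrg, Hr, Klf9, Trh, Tshb and Nr1d1, any thyroid hormone gene called in a test, the 5 nearest patterns of each gene, and Dbp. 1 other gene of this rule is not reported here. Other markers were named to describe the tissue. Alternatives were deposited FPKM, median-of-ratios scaling, a pseudocount of 0.1, no minimum, no trend, 5 tissue scores as covariates, any difference among time points, a replicate block, and leaving out single libraries or those rich in liver or striatal transcripts. Leaving out libraries rich in Agrp, and taking Rax from fits with no minimum, were added after the data were seen. Positions are from GENCODE M21 on GRCm38. Promoter windows are from RefSeq on GRCm38.p6, which had windows for Dio2 and Thrb, and those of the other genes are not used here.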

Additional observations from a re-analysis of the deposited data

How the results depend on the processing

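None of the 5 genes was called in any rhythm or diet test under the alternatives run. The genes called in normal chow numbered 128, against 260 with median-of-ratios scaling, 45 without libraries rich in liver transcripts, 2 with 5 tissue scores and 50 for any difference among time points, and 48 (without normal chow ZT 16 replicate 3) to 162 (without normal chow ZT 12 replicate 1) with 1 library left out. In high-fat diet 11 became 5 with no minimum, 2 without liver-rich libraries, 4 with tissue scores, 2 for any difference, and 4 (without ZT 4 replicate 1) to 13 with 1 left out. Over both diets 331 became 165 without liver-rich libraries. Contrasts called at single time points went from 0 to 1 with no minimum, without liver-rich or striatal-rich libraries and with tissue scores, and ranged from 0 to 1 with 1 left out.

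The diet difference over all hours turned sign for Thra on deposited FPKM (-0.0054). It did so without liver-rich libraries for Crym (-0.15), Dio2 (-0.16) and Thrb (0.020), and without striatal-rich libraries for Dio2 (-0.033) and Thrb (0.0023). With tissue scores it did so for Dio2 (-0.025), Thrb (0.018) and Rax (-0.079). With 1 library left out it ran from -0.12 to 0.11 for Dio2, 0.18 to 0.57 for Crym, -0.0072 to 0.013 for Thra, -0.056 to 0.034 for Thrb and -0.050 to 0.10 for Rax. Thra at ZT 8 turned to -0.036 on deposited FPKM and -0.025 with median-of-ratios scaling. Dio2 at ZT 16 was -0.19 without liver-rich and without striatal-rich libraries, and ran from -0.19 to 1.35 with 1 left out. At that hour both of these sets take out the same library, high-fat diet ZT 16 replicate 3. With tissue scores the Thrb difference in rhythm was 0.31, its high-fat rhythm 0.094 and the Crym contrast at ZT 20 -0.58. The Thra rhythm over both diets was 0.021 on deposited FPKM and 0.099 without liver-rich libraries. Called pairs of genes fell from 5 to 1 on deposited FPKM, where relations with marker scores fell from 16 to 5. There 11 of the 50 relations turned sign, 3 of them called on rescaled values (Dio2 with Thra -0.142, Thra with Thrb -0.125, Thrb with the pan-neuronal score -0.165). Without libraries rich in Agrp 3 pairs were called.

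With replicate number as a replicate block, called genes were 7 in high-fat diet and 1 at single time points, and no rhythm or diet call of the 5 genes changed. Of the 50 relations 5 lost their call (Dio2 with astrocyte, Crym with tanycyte and choroid plexus, Thrb with choroid plexus and astrocyte scores) and 3 gained one (Thra with ependymal, astrocyte and pan-neuronal scores). The numbers were not taken to pair the libraries, since that needed every pair over 0.1: of 18 same-numbered pairs across diets 9 had a correlation of residuals over 0.1, with a median of 0.10, while 12 correlated best with their own number, where random numbers would give 6, a hint from the data and not the design. With 3 libraries a group and Crym spread over 1.83 log2 within groups, differences of several-fold in Crym could not be detected, and values near those of Rax have no known error of counting.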
